A study of Mus musculus with 2 samples.

Results

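AT-rich distal accessible sites are places away from promoters where chromatin was open although the local DNA holds few G and C bases. They were taken from DNase-seq of mouse hippocampus as peaks of replicate 1 that overlapped a peak of replicate 2 by at least 1 bp, lay over 1000 bp from every annotated transcription start site (TSS), and had a GC content of 35% or less in the 200 bp around the peak midpoint. The rule found 334 sites among 74414 distal shared sites, out of 144270 peaks of replicate 1. That is 0.449% of the distal shared sites (95% Wilson interval 0.403 to 0.499%, counting error only). Both libraries belong to 1 group: hippocampus (the label says only a layer of it) from male B6CASTF1/J mice aged 8 to 10 months, with 2 biosamples pooled for each of the 2 biological replicates. B6CASTF1/J animals are a first-generation cross of C57BL/6J and CAST/EiJ. Their donor labels are identical and nothing states that the pooled animals differ, so the spread between replicates may be partly technical. There was no second condition and no test between conditions, so values are given per replicate and differences are set against their spread.

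DNase I cuts DNA that is not wrapped in nucleosomes or covered by proteins. Clusters of cuts are called as peaks, and a short protected stretch inside a peak is called a footprint. Nucleosomes form less readily on long runs of A or T, while many regulatory elements are richer in G and C than the DNA around them. Several factors of neurons, such as MEF2, POU and homeodomain proteins, bind AT-rich words, whereas the zinc finger protein CTCF, which shapes chromosome loops, and basic helix-loop-helix (bHLH) factors such as NEUROD proteins, which bind the E-box, read words that contain G and C.

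The sequences of 7 sites show what an AT-rich accessible window looks like (mm10, forward strand, 5′ to 3′, the whole 200 bp window, with the matched word in capitals on whichever strand it lies). They were chosen as the tallest AT-rich site with less than 10% of the window masked as repeat and with the word inside a footprint of both replicates, and they carry the words on which the results turn. The Ubac2 intron and the lowest-GC site hold a CTCF word, and the Rbfox1 intron and the site near Dhx36 hold E-boxes. The Opcml intron and the site near Plscr5 hold half-sites of NFI and RFX factors, and an intergenic site on chromosome 5 holds a homeodomain word. The lowest-GC site was picked for its GC of 24.5% and its word was not required to be footprinted. For the homeodomain site the limit on masked repeat in the window was dropped, a choice made after the values were seen.
Ubac2 intron, CTCF pattern: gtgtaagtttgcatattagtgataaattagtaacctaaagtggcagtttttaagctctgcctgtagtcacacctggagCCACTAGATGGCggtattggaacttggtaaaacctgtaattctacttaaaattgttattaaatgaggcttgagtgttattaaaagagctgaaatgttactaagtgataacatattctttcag
Lowest-GC site, CTCF core: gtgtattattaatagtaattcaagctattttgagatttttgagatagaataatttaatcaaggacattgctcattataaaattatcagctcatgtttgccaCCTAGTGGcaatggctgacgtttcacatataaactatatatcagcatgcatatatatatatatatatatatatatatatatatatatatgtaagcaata
Rbfox1 intron, CAGATG: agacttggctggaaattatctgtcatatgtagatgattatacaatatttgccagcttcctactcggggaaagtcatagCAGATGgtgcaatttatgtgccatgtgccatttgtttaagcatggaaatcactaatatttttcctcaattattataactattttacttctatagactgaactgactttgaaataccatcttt
Site near Dhx36, CAGCTG: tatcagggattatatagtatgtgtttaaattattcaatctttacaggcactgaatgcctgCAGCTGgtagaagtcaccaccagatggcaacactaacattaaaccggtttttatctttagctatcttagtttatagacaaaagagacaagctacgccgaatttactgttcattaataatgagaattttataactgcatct
Opcml intron, NFI half-site: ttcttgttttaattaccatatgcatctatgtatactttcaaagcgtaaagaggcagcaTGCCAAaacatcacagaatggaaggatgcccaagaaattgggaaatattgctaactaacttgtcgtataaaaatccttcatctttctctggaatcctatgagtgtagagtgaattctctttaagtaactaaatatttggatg
Site near Plscr5, RFX half-site: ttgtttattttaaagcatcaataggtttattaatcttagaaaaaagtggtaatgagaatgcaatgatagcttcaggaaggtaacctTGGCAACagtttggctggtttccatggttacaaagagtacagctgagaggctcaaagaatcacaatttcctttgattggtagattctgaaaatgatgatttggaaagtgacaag
Intergenic chromosome 5 site, homeodomain word: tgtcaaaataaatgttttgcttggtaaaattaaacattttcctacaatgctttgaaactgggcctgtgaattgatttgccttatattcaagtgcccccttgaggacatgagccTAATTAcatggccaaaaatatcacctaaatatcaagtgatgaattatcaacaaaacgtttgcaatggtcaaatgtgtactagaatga

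The windows lie at chr14:121928471-121928670 (intron of Ubac2), chr5:16894266-16894465 (lowest GC, intergenic), chr16:6427757-6427956 (intron of Rbfox1, a neuronal splicing regulator), chr3:62527301-62527500 (near Dhx36, an RNA helicase gene), chr9:28225991-28226190 (intron of Opcml, an adhesion molecule of the IgLON family), chr9:92178941-92179140 (near Plscr5) and chr5:10633291-10633490 (homeodomain word). In the Ubac2 intron the peak had heights, in the authors' own units, of 0.755 and 1.30 in replicates 1 and 2, and at the lowest-GC site they were 0.184 and 0.220. In the Rbfox1 intron they were 0.728 and 0.665, and near Dhx36 0.505 and 0.710. The window near Dhx36 also holds the CTCF pattern, so a word in a site does not by itself name the protein there.

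AT-rich windows were scarce among accessible sites compared with their surroundings. Of 138688 windows of 200 bp centred 1000 bp to either side of the distal shared sites and touching no peak of either replicate (flanks), 12.6% had GC of 35% or less, and of 643 flanks of the AT-rich sites themselves 28.9% did. In replicate 1 alone 498 of 107027 distal peaks were AT-rich (0.465%), in replicate 2 449 of 89636 (0.501%). Within 1000 bp of a TSS the count was 16 of 37243 peaks of replicate 1. The median GC of the 334 sites was 34%, against 49.5% in the other 74080 distal shared sites, and 15 sites had 30% or less. These GC values follow from the rule and are given as a description. At the threshold, 81 sites had exactly 35% and 108 sites just outside had 35.5%. By mean height of both replicates, the 3 tallest sites on the inner edge had heights of 2.45, 1.57 and 1.45 in replicate 1, and the 3 tallest just outside had 2.82, 1.85 and 1.48, so nothing in the heights marks this limit.

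The rule fixed the mean GC of the window but not where in it the G and C lie, and they lay at the middle. The central 40 bp of the AT-rich sites had a mean GC of 45.9%, whereas the outer 40 bp at each end had 27.4%. Because the rule caps the mean of the window, a richer centre requires poorer ends, so the depth of the ends is partly set by the rule. At the left edge mean GC stepped from 33.9% in the 20 bp outside the window to 27.7% inside it. At the right edge it stepped from 34.3% outside to 26.3% inside. The centre was richer than the ends in 313 of 334 sites (93.7%). In the 17434 AT-rich flanks the centre had 30.3% and the ends 32.3%, and the centre was the richer in 40.7%. Other sites of like height had 51.8% at the centre and 47.1% at the ends, and 66.1% of them were richer at the centre. (The other sites are weighted throughout so that they spread over the 10 deciles of replicate 1 height as the AT-rich sites do, unless stated otherwise.) The centre of an AT-rich site was therefore closer in composition to an ordinary distal site than its window average shows. Some AT-rich sites, 108 in number, held no CTCF word, none of 3 of the E-boxes and no NFI or RFX half-site, all described below. Of these 99 still had the richer centre, with a mean of 44.9% over the 108.

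**Figure D1:**
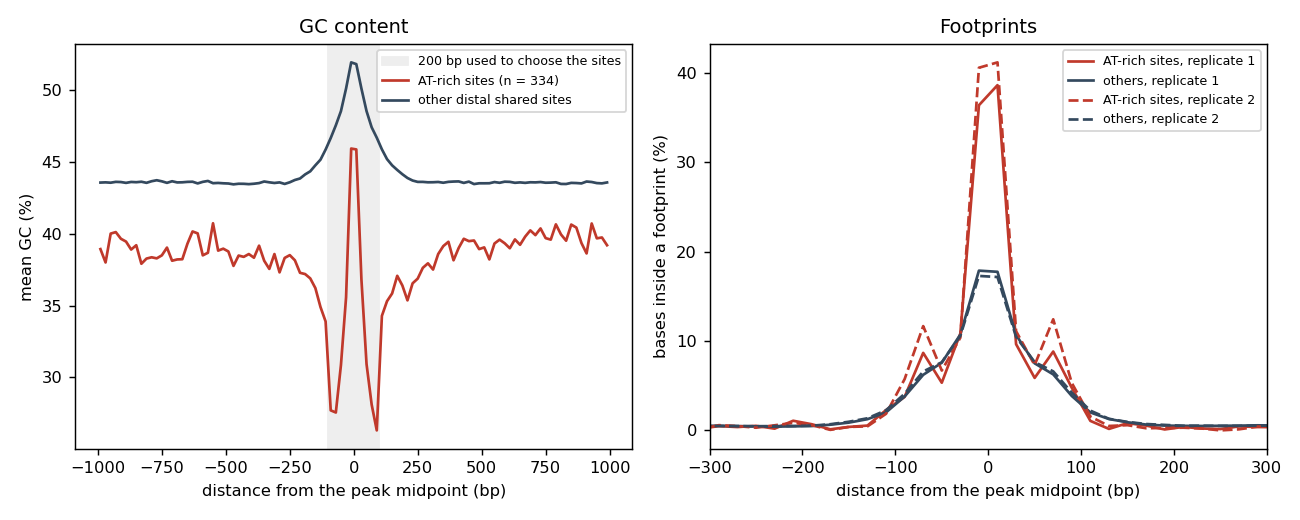
Mean GC (left, in percent) and the share of bases inside a footprint (right, in percent, solid for replicate 1 and dashed for replicate 2) against distance from the peak midpoint in bins of 20 bp, for the 334 AT-rich sites (red) and the other distal shared sites weighted to the same heights (blue). A GC-rich middle of about 45.9% stands between shoulders under 30%, and footprints crowd on the same central bases. The depth of the shoulders is partly set by the rule, which caps the GC of the window.

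Footprints followed the same shape. In the 20 bp bin just right of the midpoint 38.6% of bases lay in a footprint in replicate 1 and 41.2% in replicate 2, against 17.7% and 17.2% in other sites of like height. From 20 to 60 bp to the right the AT-rich sites had between 5.86 and 11.1% in both replicates, close to the 7.499 to 10.7% of the others. A smaller rise lay from 60 to 80 bp on that side, at 8.82 and 12.4% against 6.26 and 6.60%. Over the whole window 13.3% of bases of AT-rich sites were footprinted in replicate 1 and 15.2% in replicate 2, against 9.22% in the others in each replicate. At least 1 footprint was found in 83.5% of AT-rich windows in replicate 1 and 84.7% in replicate 2, against 78.0 and 76.7% of the others. The mean difference was 6.77 ± 1.73 percentage points (SD, n = 2 replicates). This SD comes from the same sites read in either replicate, and sites from replicate 2's list gave 3.60. Without weighting to like heights the difference turned to -3.08 points, against other sites that are taller. In both replicates at once 73.7% of AT-rich windows held a footprint, against 64.5% of the others.

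Of the words with matches in at least 20 AT-rich sites, that of CTCF was the most concentrated there. Its core, CCACNAGG on either strand, was found in 39 sites (11.7%, interval 8.66 to 15.6%) but in 0.665% of AT-rich flanks and 5.34% of other sites of like height. The odds ratio against the AT-rich flanks, with 0.5 added to each cell, was 19.9. It lay above 1 on 20 of 20 chromosomes (all but Y). Several of these held no match and stand above 1 only through the added 0.5. For the other sites against their own flanks the odds ratio was 1.89. A wider form of the CTCF word, CCANNAG followed by 2 bases and GGC, was added after the printed sequences were read. It was found in 77 AT-rich sites (23.1%, interval 18.9 to 27.9%), in 102 of the 17434 AT-rich flanks (0.585%) and in 7.65% of the other sites. The core and the wider form together marked 88 sites, and 28 sites held both.

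The wider CTCF form became more frequent with falling GC in accessible sites while it became rarer in flanks. Among distal shared sites weighted to the same heights it was found in 5.26% at GC over 60%, 6.70% at 50 to 55%, 9.61% at 40 to 45% and 15.1% at 35 to 40%. At 30 to 35% it was found in 22.4% of 319 sites. Of the 15 sites at 30% or less 5 held it. Flanks went the other way, from 2.47% at GC over 60% to 0.691% at 30 to 35% and 0.351% at 30% or less.

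Every match to the wider CTCF form in an AT-rich site, 77 of 77, lay within 50 bp of the peak midpoint, at a median distance of 6 bp. Of these matches 47 lay in a footprint of replicate 1 and 59 in one of replicate 2. For the CTCF core 23 of 39 matches (59.0%) were footprinted in replicate 1 and 28 (71.8%) in replicate 2, while in the other sites 39.1 and 41.0% were. All 20 chromosomes tested held at least 1 AT-rich site with the wider form.

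The E-box CAGATG had nearly the same share in AT-rich sites as in other sites of like height, against a lower share in flanks. CAGATG, a word bound by NEUROD-type bHLH factors, was found in 103 AT-rich sites (30.8%, interval 26.1 to 35.99%), in 9.72% of AT-rich flanks and in 32.03% of other sites of like height. Its odds ratio against flanks was 4.15 in AT-rich sites and 2.44 in the others, and the letters in reversed order gave 0.650. CAGATG can form part of a CTCF word, and 9 of its 116 matches lay within the wider CTCF form. Outside that form it was found in 94 AT-rich sites (28.1%), with an odds ratio of 3.65. Matches sat at a median of 15 bp from the midpoint, and 42.2% were footprinted in replicate 1 and 34.5% in replicate 2, against 24.4 and 21.1% in the other sites.

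CAGCTG, the E-box of other bHLH factors, was found in 34 AT-rich sites (10.2%) and 2.73% of AT-rich flanks, for an odds ratio of 4.09. Its letters in reversed order gave 5.40. The reversed word thus exceeded CAGCTG in this measure, and it holds a CG dinucleotide, which CAGCTG lacks. Whether composition alone accounts for the share of CAGCTG was not tested. In other sites CAGCTG was more common, at 21.7%. CAGGTG, which ZEB repressors bind, was found in 29 sites with an odds ratio of 2.13, against 0.884 in the other sites, where its share of 13.3% was above the 8.68% of the AT-rich sites. CATATG, the E-box of OLIG factors, was found in 28 AT-rich sites (8.38%) and in 8.54% of AT-rich flanks, for an odds ratio of 0.996. The half-site TTGGCA of NFI factors was found in 58 AT-rich sites (17.4%) against 8.43% of AT-rich flanks and 22.7% of other sites. RFX factors, which bind GTTGCCA, had a match in 15 sites (4.49%) against 1.31% of flanks and 5.14% of other sites. Footprints covered 8 of the 16 RFX matches in each replicate.

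Taken over all AT-rich sites, words of factors that bind AT-rich DNA stood little above AT-rich DNA without a peak, or were found in few sites. The homeodomain word TAATTA was found in 59 sites (17.7%, interval 13.9 to 22.1%) and in 17.0% of AT-rich flanks, for an odds ratio of 1.06, and 5 and 2 of its 64 matches (7.81 and 3.13%) were footprinted in replicates 1 and 2, against 4.66 and 3.09% of matches in other sites. The PBX-HOX word gave 1.10, the GATA word 0.957 and the OTX word 0.850. The flanks were slightly more AT-rich than the sites. With flanks weighted to the GC of the sites, the homeodomain, PBX-HOX, GATA and OTX words gave 1.27, 1.23, 1.03 and 0.798. In windows with less than 10% masked as repeat, which are few, they gave 1.34, 1.81, 1.45 and 0.767. The POU octamer ATGCAAAT was found in 13 sites and none of its matches lay in a footprint of either replicate, and the MEF2 words, found in 12 sites, had 1 of 14 matches in a footprint of replicate 1 and none in replicate 2. These 2 words had odds ratios of 1.57 and 1.53 on few sites. The intervals of 2.29 to 6.54% and 2.07 to 6.17% around shares of 3.89 and 3.59% hold the 2.60 and 2.47% of the flanks. With flanks weighted by GC their odds ratios were 1.62 and 1.87. In the few windows with less than 10% masked they were 1.73 and 2.68. The TATA word TATAAA was rarer in the sites, at 29.0% against 39.1% of flanks (0.640, or 0.815 with weighted flanks). Runs of 8 A or T alone on 1 strand (AAAAAAAA) were found in 87 sites (26.0%), in 18.9% of AT-rich flanks and in 3.29% of other sites, whereas TATATATA was found in 5 sites (1.497%) against 6.56% of flanks.

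Over the 32 motifs searched, 24 had an odds ratio above 1, but 3 of these had no match at any AT-rich site and stand above 1 through the added 0.5. Of the 14 motifs with matches in at least 20 sites, 10 were above 1 and 5 above 2 (the CTCF core, CAGATG, the E-box and ZEB words and the NFI half-site). The AT-rich flanks had a median GC of 32%, below the 34% of the sites. With flanks weighted to the GC of the sites the CTCF core had 15.1 and the ZEB word 1.66, which left 4 above 2. Letters in reversed order gave 1.90 for the CTCF core, 1.06 for the ZEB word and 0.715 for the NFI half-site. In windows with less than 10% masked the CTCF core had 12.3 and the AP-1 word 3.32, in place of 1.49. Of all motif matches in AT-rich sites 21.8% lay in a footprint in replicate 1 and 20.8% in replicate 2. In other sites of like height 14.9 and 13.9% did, a difference of 6.82 ± 0.0142 percentage points (SD, n = 2 replicates). This SD comes from the same matches read in either replicate and does not cover the choice of sites. Sites from replicate 2's list gave 5.47. Without the height weighting the difference was -0.361. All 32 words were missing from 20 sites.

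**Figure D2:**
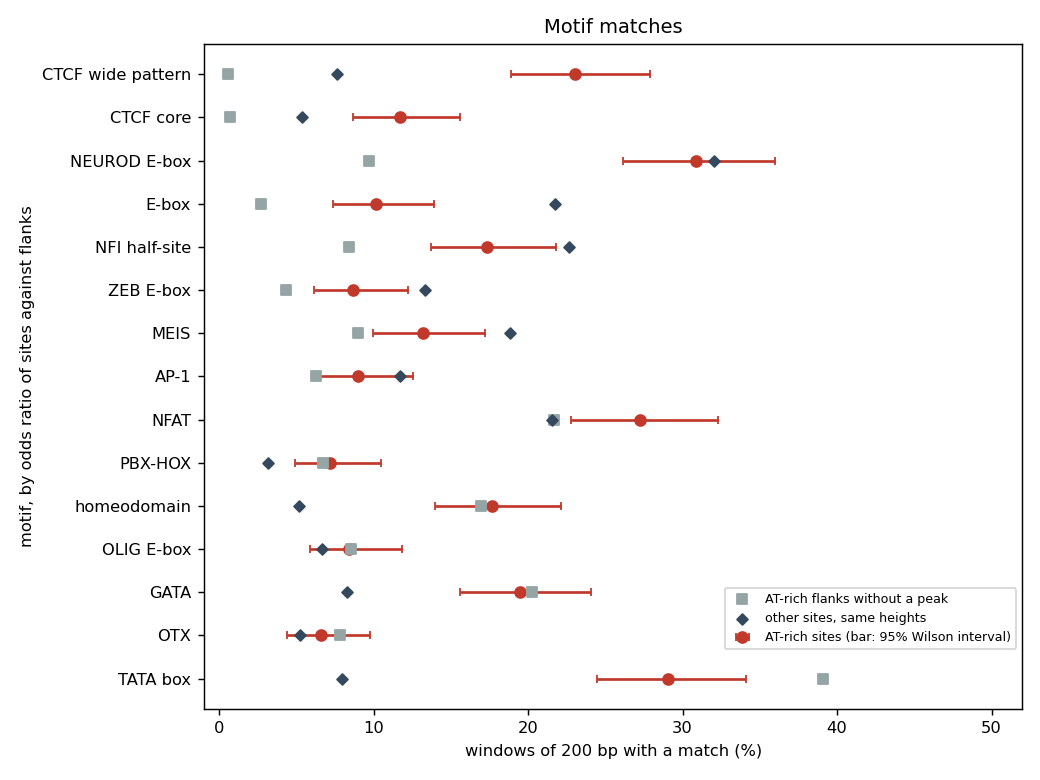
Percent of 200 bp windows with a match (horizontal axis) for the CTCF wider form and the motifs with a match in at least 20 AT-rich sites, ordered by odds ratio, in the 334 AT-rich sites (circles, with 95% Wilson intervals), AT-rich flanks (squares) and other sites weighted to the same heights (diamonds). The CTCF words, CAGATG and CAGCTG (labelled E-box) stand to the right of the squares, while the homeodomain, OLIG E-box, GATA and OTX words lie beside them.

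The AT-rich sites were low peaks. Heights of the 334 sites in replicate 1 ran from 0.138 through a median of 0.479 to 4.82. In replicate 2 those of the 332 sites that paired one to one with a peak ran from 0.161 through 0.484 to 8.95. Other distal shared sites had medians of 0.748 and 0.652. One step between neighbouring heights was 0.00656 in replicate 1 and 0.00646 in replicate 2, so a median AT-rich site stood at 73 and 75 steps, which sets a coarse limit on single heights. Of the lowest height decile 1.18% of sites were AT-rich, 86 in number, and of the highest 0.0403%, which is 3 sites.

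The 2 tallest sites need care. The peak at chrX:143483001-143483140, intergenic beside Pak3, which encodes a kinase of neurons, had heights of 4.82 and 8.95, and its central 31 bases occur 3 times in the genome. The peak at chr9:3002001-3002220, in a window wholly masked as repeat, had heights of 2.26 and 6.14 and its central bases occur 44 times. Whether reads from several copies add to these heights was not tested. Across all 334 sites the central 31 bases occurred once in 328 (98.2%).

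The other tall peaks described here occur once. In an intron of Kalrn, a guanine nucleotide exchange factor of dendritic spines, the peak at chr16:34236881-34237300 had heights of 2.45 and 1.87. An intergenic peak at chr13:104939961-104940160 had 1.69 and 2.23. In an intron of Rgs16, a regulator of G protein signalling, the peak at chr1:153742501-153742680 had heights of 1.52 and 2.40 and holds a CTCF core. Another 4 of the 10 tallest, at chr12:3109801-3109920, chr12:35896301-35896480, in Zfpm2 and in Uvrag, had heights between 1.45 and 1.82 in replicate 1 and between 1.43 and 1.90 in replicate 2.

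The height ratio of the replicates differed between AT-rich and other sites by an amount that varied with how the sites were chosen. The median log2 ratio of height, replicate 2 to replicate 1, was 0.03 at the 332 paired AT-rich sites, -0.09 at other sites of like height and -0.15 over all 73363 paired distal sites, and 173 of the 332 (52.1%) were higher in replicate 2. The difference of 0.12 had a spread of 0.0958 (SD of the values from either replicate's list, n = 2). After the median over all pairs was subtracted, 67 of 332 AT-rich sites (20.2%) were more than 1.5-fold higher in replicate 2, where the background over all paired distal sites was 5.61% and that of other sites of like height 8.00%. In the other direction 9 of 332 (2.71%) passed, against a background of 4.75% and 3.78% of other sites of like height. With GC of up to 38% the difference was 0.034, with windows of 150 bp 0.027 and with GC of 32% or less 0.25. Sites at exactly 35% had a median log2 ratio of -0.09.

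The ratio was higher where the CTCF word was present. The 77 AT-rich sites with the wider form had a median log2 ratio of 0.23 and the 255 paired sites without it -0.06. In the other sites the same division gave 0.09 and -0.11, so the ratio was raised with the word on both sides of the GC limit. The AT-rich sites had the higher median both with the word and without it. Whether the word accounts for the difference between the full sets was not tested. Median heights in the AT-rich sites with the wider form were 0.505 in replicate 1 and 0.633 in replicate 2, and without it 0.466 and 0.452. Of the 67 sites past 1.5-fold 35.8% held the wider form, against 23.1% of all AT-rich sites. The 67 were 24 of the 77 sites with the form and 43 of the 255 without it, so most of them lacked it. Sites with CAGATG lay the other way, at -0.11 against 0.10 without it. What set the replicates apart was not tested.

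**Figure D3:**
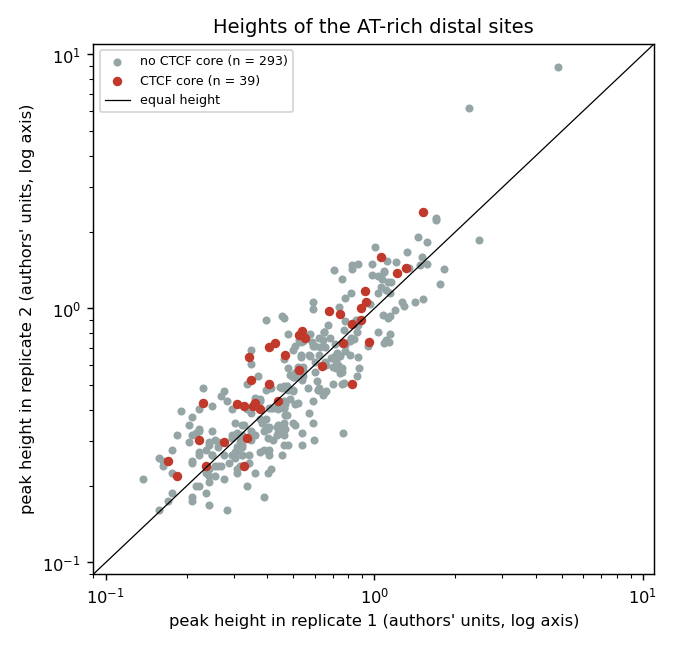
Peak height in replicate 1 (horizontal, log axis) against replicate 2 (vertical, log axis), in the authors' units, for the 332 paired AT-rich sites, with the 39 that hold a CTCF core in red and the line of equal height in black. Sites with the core have a median log2 ratio of 0.26, and the 2 sites far to the upper right are the repeated ones.

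After scaling, the repeated site on chromosome 9 differed most towards replicate 2 (log2 1.60), followed by a site in an intron of Nnt, which encodes a mitochondrial transhydrogenase, at chr13:119363461-119363656 with heights of 0.394 and 0.904 (1.35), and one at chrX:134913675-134913796 with 0.230 and 0.484 (1.23). Towards replicate 1 the largest were at chr1:113395341-113395580 with 0.761 and 0.323 (-1.08), chr9:25962101-25962280 with 0.387 and 0.181 (-0.94) and chr5:86723341-86723600 with 0.597 and 0.303 (-0.82). Each of those 3 holds CAGATG or CAGCTG, and so does the Nnt site on the other side. Over all 334 AT-rich sites 125 hold one of these words.

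AT-rich peaks of replicate 1 were found again in replicate 2 more often than others of like height. Of 498 distal AT-rich peaks 67.1% overlapped a peak of replicate 2, against 55.5% of the others, a difference of 11.6 percentage points. Starting from replicate 2, 78.4% were found in replicate 1 against 75.4%, a difference of 3.03 points, so the 2 directions differ by a spread of 6.07 (SD, n = 2). Without weighting the first difference was -2.47 points, against other peaks that are taller. Among peaks with less than 10% of the window masked as repeat the weighted difference was 3.86 points. By GC class the weighted share fell from 66.0% at 30 to 35% through 57.1% at 45 to 50% to 46.7% over 60%.

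**Figure D4:**
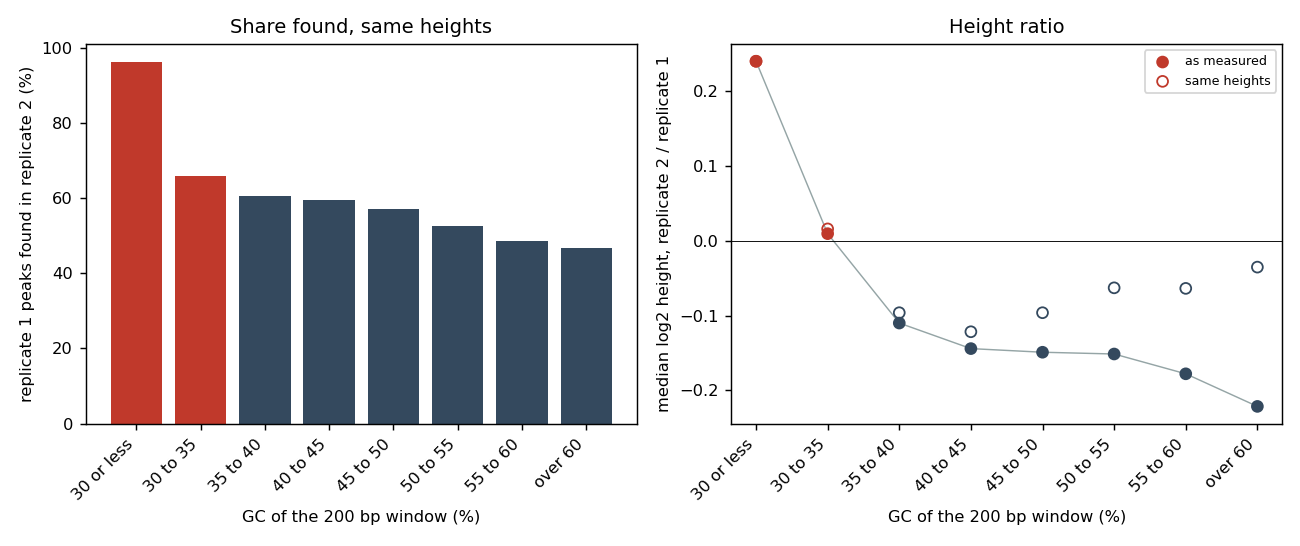
Percent of distal replicate 1 peaks found in replicate 2, weighted to the heights of the AT-rich sites (left), and the median log2 height ratio of replicate 2 to replicate 1 as measured (filled) and weighted (open, right), by GC class of the 200 bp window. The AT-rich classes (red) stand highest in both panels, and the lowest class holds 16 peaks, of which 15 are shared.

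The words also differed between AT-rich peaks found in both replicates and in 1 alone, but not in the same way in each replicate. Among peaks of replicate 1 the wider CTCF form was found in 77 of the 334 found again (23.1%) and in 12 of the 164 not found (7.32%, interval 4.23 to 12.4%). CAGATG went the other way, with 30.8% of those found again and 45.1% (interval 37.7 to 52.8%) of those not found. Among peaks of replicate 2 not found in replicate 1, 16 of 97 held the CTCF form (16.5%, interval 10.4 to 25.1%). CAGATG was held by 19 of them (19.6%, interval 12.9 to 28.6%). Of the 352 peaks of replicate 2 found again, 23.0% held the CTCF form and 31.8% CAGATG. The CTCF interval of its unshared peaks thus holds the share of those found again, and CAGATG was rarer in its unshared peaks. The CAGATG intervals of the unshared peaks of the 2 replicates did not overlap, but they cover counting error only. Each side is 1 library, so there is no spread to set this difference against. Unshared peaks were low, with median heights of 0.269 and 0.278. Only 11 of the 164 touched an interval that replicate 2's deposited false discovery rate file lists at 0.05 or less (6.71%, interval 3.79 to 11.6%), against 12.1% of the other unshared peaks, whose heights were not matched.

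AT-rich sites lay in AT-rich, gene-poor parts of the genome. The 100 kb around them had a median GC of 39.1%, against 42.8% around other sites of like height. When the distal shared sites were divided into 5 groups of about equal size by this value, the groups held 221, 76, 20, 13 and 4 AT-rich sites from lowest to highest GC, or 1.49% to 0.0269% of the sites in each. Intergenic sites made up 60.5% (interval 55.1 to 65.6%) against 48.9% of the others, a difference of 11.6 ± 0.317 percentage points (SD from either replicate's list, n = 2). Intronic sites made up 37.1% against 45.7%, and exonic ones 2.40% (8 sites) against 5.41%. The median distance to a coding TSS was 100648 bp, against 52946 bp. They also stood more alone, with a median of 17228 bp to the next distal shared site against 8417 bp, and only 4 had another AT-rich site within 10000 bp.

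**Figure D5:**
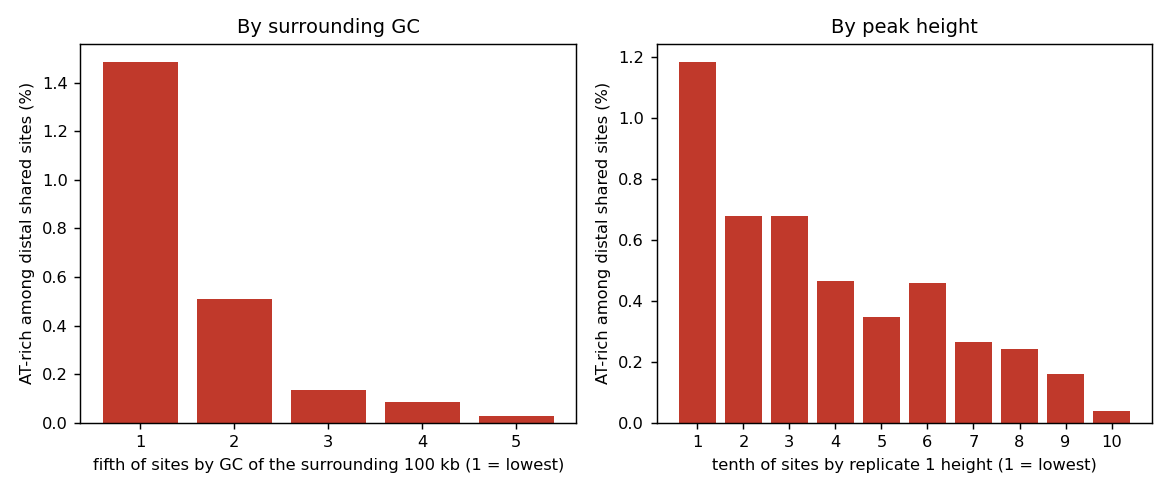
Percent of distal shared sites that are AT-rich (vertical axes), in 5 groups by the GC of the surrounding 100 kb (left) and by decile of replicate 1 height (right). The share falls from 1.49% to 0.0269% with surrounding GC and from 1.18% to 0.0403% with height.

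Chromosome X held the highest share, 21 of 1750 distal shared sites (1.20%, interval 0.786 to 1.83%), of which 20 lay in the group of lowest surrounding GC. Within that group X had 2.60% against 1.42% on the autosomes. Chromosome 3 followed with 30 sites (0.775%), while chromosome 7 held 5 (0.120%) and chromosome 11 held 9 (0.196%). Part of most windows was soft-masked as repeat or low-complexity sequence in the reference, with a median of 21.8% of bases against 1% in the others, and only 57 windows (17.1%) were masked over less than 10% of their length. No CG dinucleotide was present in 33.2% of the AT-rich windows, against 10.3% of the others. Windows chosen for low GC hold fewer CG dinucleotides, so this follows at least in part from the rule. The ratio of observed to expected CG dinucleotides had a median of 0.179 against 0.230.

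At genes, the sites were spread singly. Within 10000 bp of or inside protein-coding genes 149 genes had 1 AT-rich site and 2 had 2, so no ranking beyond those 2 was possible. Dgkb, which encodes diacylglycerol kinase beta, has sites with heights of 0.354 and 0.413 in replicates 1 and 2, and of 0.413 and 0.484, among 24 distal shared sites. Sema3e, a secreted guidance ligand, has sites with 0.466 and 0.420, and with 0.368 and 0.542, among 9. Of the neuronal adhesion genes, 4 of 18 had a site, 1 each in introns of Ctnna2, Lsamp, Nlgn1 and Opcml, out of 653 distal shared sites (0.613%). Of the ion channel and receptor genes 3 of 20 had one, in the calcium channel subunit gene Cacna2d1 and the glutamate receptor genes Gria4 and Grik2, out of 335 (0.896%). Of the genes for factors that bind AT-rich sequence 1 of 35 had one, Sox5, out of 285. These shares include the 0.449% of all distal shared sites in their intervals.

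Lists of genes that mark cell types of the hippocampus had none. The excitatory neuron genes had 98 distal shared sites, 40 of them at the AMPA receptor gene Gria1 and 12 at Camk2a, and no AT-rich one, which allows a share of up to 3.77% (upper bound of the Wilson interval). The genes of CA2 and CA3 pyramidal cells had 91, led by Grik4 with 38 and Cpne4 with 14, and those of inhibitory neurons 81, led by Adarb2 with 20. Lists of dentate granule and CA1 cells, oligodendrocytes, astrocytes, microglia and vessels had 32 to 52 each, again with no AT-rich site. At these numbers a difference from the share over all sites was not detectable. Promoters of these lists were open in both replicates at 12 of 12 excitatory neuron genes, 10 of 16 inhibitory neuron genes, 11 of 12 astrocyte genes and 3 of 12 microglia genes.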

How the data were processed

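DNase-seq peaks, footprints and false discovery rates of 2 biological replicates of hippocampus were used as deposited, in mm10 per the labels. No source used here names the aligner or the callers. The authors deposited 2 peak lists per sample, and the longer one was used. Column 7 was read as a height (unit: signal), whose scale the authors did not state. The deposited false discovery rate file holds q-values (a corrected p-value), and the footprint files hold the constant 0.01, so only positions were used.

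Windows of 200 bp were read from GRCm38.p6 (soft-masked), and TSSs from GENCODE M21, comprehensive set. Motifs were exact words on either strand in windows and in flanks 1000 bp away. Others were weighted over 10 deciles of replicate 1 height. Intervals are 95% Wilson intervals and cover counting error only. Functions were tested on simulated data. Tools were Python 3.11.15, numpy 2.4.6, pandas 2.3.3, scipy 1.17.1, bedtools 2.31.1 and matplotlib 3.10.9.

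The sites, motifs and gene lists were chosen with earlier results of these data known. The text names the 10 tallest sites (1 is not reported here), genes with the most AT-rich sites, list genes with the most, the 3 largest replicate differences in each direction and the sites at the threshold. Sites on replicate 2's list, flanks weighted by GC and the wider CTCF form were added after seeing the data. Whether reads of the CAST/EiJ allele mapped equally was not analysed here.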

Additional observations from a re-analysis of the deposited data

How the results depend on the processing

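Of the alternatives to the values above, 39 stayed within the spread between replicates (for the count of motifs, within 1.5 times the count), 39 moved beyond it and 3 reversed. For footprints and motif matches that spread comes from the same sites read in either replicate. For matches it was only 0.0142, so small shifts count as moved there. All 3 reversals came from not weighting the other sites to like heights: the difference in the share found again was -2.47 percentage points, in windows with a footprint -3.08 and in footprinted motif matches -0.361. A GC limit of 32% gave 18.5 points for the share found again, 0.25 for the log2 height ratio and 14.4 for footprints. The same limit gave 13.5 for intergenic sites and 7.04 for motif matches. For the median GC of the sites minus that of their flanks it gave -7.75. With the main rule this difference was -5.5, from medians of 34% and 39.5%. The sites were chosen for low GC, so this difference and its shift with the GC limit follow at least in part from the rule. A limit of 38% gave 5.02, -2.5 and 5.35 for footprints, GC and matches. Sites under 10% masked (57) gave 3.86 for the share found again, 9.80, -4.5, 11.1 and 5.63 for footprints, GC, intergenic sites and matches. Windows of 150 bp gave 0.027 for the ratio and 7.28 for matches, and summed heights 0.23 for the ratio. Overlap of at least 50% of both peaks gave -5, 10.2 and 7.01, and a stricter TSS distance -5, 11.3 and 6.05, for GC, intergenic sites and matches. The shorter list gave 3.74 for footprints and 7.59 for matches, autosomes 11.99 for intergenic sites and 6.84 for matches, and no weighting 15.4 for intergenic sites. Replicate 2's list gave 3.60, -5, 11.1 and 5.47 for footprints, GC, intergenic sites and matches. Leaving out a replicate gave 5.67 to 7.64 for footprints, -5 for GC both times, 9.45 to 10.0 for intergenic sites and 5.59 to 6.25 for matches. Reversed letters gave 15 motifs above 1 in place of 24. Beyond the differences in construction, the cause was not tested. No paired analysis was possible because there was only 1 group. Low peaks of 73 to 75 steps limit the heights, and 2 replicates limit every spread.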
